A study of Homo sapiens with 17 samples.

Results

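SPARC, the collagens, the laminins and the integrins make and hold the extracellular matrix around a cell. Genes of these families were taken by symbol from the mRNA-seq table of the study: collagen chains, laminin chains, integrin alpha and beta subunits, and 8 other matrix proteins (SPARC, SPOCK1, FN1, NID1, NID2, HSPG2, AGRN and TNC). Of the 26457 genes listed, 90 matched, and the 52 members described here were selected on 1 measured value, a mean over the 8 libraries of 2.5 or more normalized reads. The members are 20 of 44 collagens, 11 of 18 integrin alpha subunits, 7 of 8 integrin beta subunits, 8 of 12 laminin chains and 6 of the 8 other proteins. The other 38 genes had at most 5 reads in any library, and 17 of them had none. Just below the minimum lay COL5A2 (mean 1.84), COL12A1 (2.18) and COL4A3 (2.34), and just above it ITGB2 (3.63), ITGB7 (4.26) and COL17A1 (4.27).

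The cells were SW480, a human colon cancer line of epithelial origin that carries a mutant p53 protein (mutp53). All of them held a stably integrated, doxycycline-inducible short hairpin RNA (shRNA), either against LacZ, a bacterial gene absent from human cells (shLacZ, control), or against p53 (shp53, mutp53-depleted). Both lines, controls included, were grown in 1.5 μg/ml puromycin and induced with 1 μg/ml doxycycline, and each was harvested at 0 h or after 16 h of 12.5 ng/ml of the inflammatory cytokine TNF-α. There were 2 biological replicates, A and B, in each of the 4 groups. Whether each line was 1 clone or a pool is not given in the sources used here. With 1 hairpin line against 1 control line, the effect of the hairpin and other differences between the lines cannot be told apart.

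A basement membrane is a thin sheet under an epithelium. Laminins, each a trimer of an alpha, a beta and a gamma chain, form one network in it and type IV collagen forms another, with nidogen (NID1), perlecan (HSPG2) and agrin (AGRN) binding both. Fibrillar collagens such as types I and V give the stroma around it tensile strength, and SPARC is a secreted glycoprotein that binds collagen and loosens the contact of cells with the matrix. Integrins are pairs of an alpha and a beta subunit that span the membrane and bind collagens, laminins or fibronectin outside the cell. In the gut epithelium the pair ITGA6-ITGB4 anchors cells to laminin-332, and ITGA2-ITGB1 binds collagens.

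Between 6108488 and 13809578 reads fell on genes in a library, and 1 read was worth 0.67 to 1.51 normalized reads. Of 12 epithelial markers, KRT20 was near 0 throughout, VIL1 had 480 to 545 normalized reads in the untreated control libraries against 0 to 12.3 in the 4 depleted ones, and the other 10 were well detected. Their summed level was 72171 to 76898 normalized reads in control cells and 54601 to 54651 in mutp53-depleted cells at 0 h, with 5 markers called lower (CLDN3, CLDN4, CLDN7, EPCAM and VIL1), and 61747 to 62710 against 44404 to 45705 at 16 h, with the same 5 and ESRP1 called lower. Most markers of other cells were at or near 0, with the fibroblast genes DCN and POSTN and the leukocyte gene PTPRC at 0 in all 8 libraries. Some were not. At 0 h the fibroblast gene ACTA2 had 90.7 and 109 normalized reads in control cells and PDGFRB 69.7 and 69.9 in depleted cells. The leukocyte gene CD14 had 34.8 and 21.2 in control cells at 0 h. The 8 endothelial markers summed to 6.06 to 7.26 in control cells and 21.9 to 29.5 in mutp53-depleted cells at 0 h, nearly all of it VWF. The part of these markers in the results was not tested. Fewer cells of a type and less RNA per cell cannot be told apart in bulk RNA. The median log2 change of the 50 tested genes nearest to a member differed between chromosome regions, for example -0.74 at ITGB8 and 0.59 at COL1A1 after depletion at 0 h. Whether the members followed their regions was not tested, and the regional median is given beside some of the results below.

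In control cells at 0 h the most abundant members per kb of exon were COL9A3, a chain of the fibril-associated type IX collagen, at 2290 normalized reads per kb (2226 and 2354 in the libraries), AGRN at 1363, COL18A1 at 1085, ITGB4 at 947 and ITGB5 at 773. The ranges of these 5 genes did not overlap. ITGA3 (628 and 676) and ITGA6 (619 and 676), the alpha subunits of laminin receptors, followed and could not be ordered. In mutp53-depleted cells at 0 h the highest were ITGA6 at 1054 normalized reads per kb, ITGB5 at 944, COL9A3 at 910 and AGRN at 732. ITGB5 (929 and 959) and COL9A3 (864 and 956) overlapped and could not be ordered. SPARC moved from rank 42 of the 52 members, at 1.97 per kb, to rank 10, at 281 per kb. Of the 52 members, 30 had a mean of at least 100 normalized reads in every group and 7 stayed under 10 in every group.

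After mutp53 depletion, some members were higher and more of them were lower. At 0 h, 16 of the 52 members (30.8%) were called, 5 higher and 11 lower, beside 15.4% of all 14800 tested genes, 5.89% higher and 9.55% lower. A call is an adjusted p under 0.05 from limma, fitted over all tested genes, and a change of at least 2-fold. At 16 h of TNF-α, 18 members (34.6%) were called, 7 higher and 11 lower, beside 15.2% of all genes, 5.03% higher and 10.2% lower. The median log2 change of the members was -0.07 at 0 h and -0.21 at 16 h, beside 0.03 and -0.01 over all tested genes. A set of 7 members had a group under 2.5 normalized reads and passed the minimum mainly through the groups where they were high. Among them were COL5A1, COL17A1, LAMA2, ITGAM, ITGB2 and ITGB7. Without these 7, 14 of 45 members were called at 0 h, 3 higher and 11 lower. At 16 h it was 15 of 45, 4 higher and 11 lower. All the calls lost were thus calls higher, and those left include SPARC, known to be extreme before it was chosen. By family, 4 collagens were called higher and 4 lower at 0 h, against 5 and 4 at 16 h. No integrin was called higher at either time, while 3 of 18 were called lower at 0 h and 5 at 16 h.

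Calls at 0 h and at 16 h had 12 members in common (75% of those at 0 h and 66.7% of those at 16 h), each with 1 direction at both times. Both times compare the same lines, and the overlap was not counted over all tested genes. It is thus not shown to be particular to the members. SPARC, COL5A1, COL5A3 and COL17A1 were higher at both, and COL6A1, COL9A3, COL18A1, HSPG2, TNC, ITGA7, ITGB4 and ITGB8 were lower at both. COL5A1 and COL17A1 had control groups under 2.5 normalized reads and passed the minimum through the depleted groups. SPARC was known to be extreme, so the calls of SPARC, COL5A1 and COL17A1 carry no test. The plot of every library for the called members shows wide gaps between the lines for the abundant members such as COL18A1, ITGB4 and TNC. LAMA2, with few reads, overlapped between the lines at 0 h (2.90 and 6.06 against 12.7 and 2.74).

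**Figure D1:**
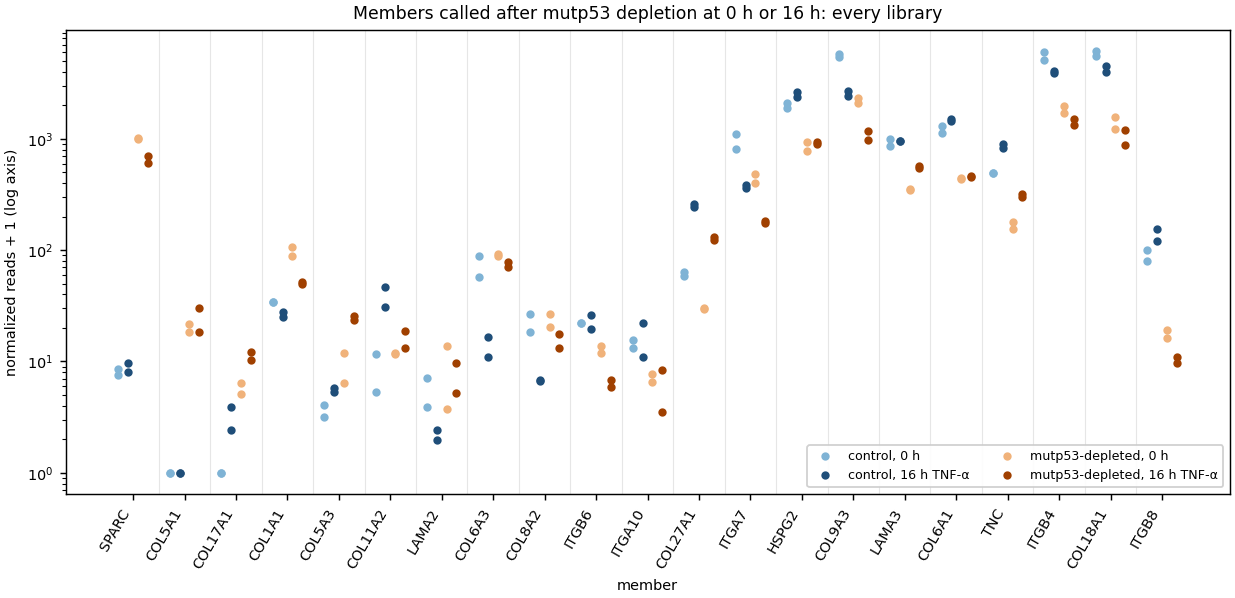
Normalized reads + 1 on a log axis in each of the 8 libraries (points, 2 per group) for members called after mutp53 depletion at 0 h or 16 h, ordered by their change at 0 h. SPARC rises from 6.53 and 7.57 normalized reads in control cells to 988 and 1020.1 in mutp53-depleted cells at 0 h, and ITGB8, at the right, falls from 78.4 and 99.99 to 18.1 and 15.1.

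SPARC had the largest fitted change of all members after depletion at both times. It lay at 6.53 and 7.57 normalized reads in untreated control cells and at 8.70 and 7.11 after TNF-α, which are 5 to 9 reads per library. In mutp53-depleted cells it lay at 988 and 1020.1 at 0 h and at 606 and 697 after TNF-α, or 565 to 1474 reads per library. All 4 depleted libraries thus held far more SPARC than any control library, 142 times the mean at 0 h and 82.4 times at 16 h (log2 changes of 6.97 and 6.20). SPARC was known to be extreme before it was chosen, so these values carry no test. The gene lies on the minus strand of chromosome 5 (151040657 to 151066615, hg19), where the 50 nearest tested genes had a median log2 change of 0.23 at 0 h and 0.28 at 16 h. Fibroblasts express SPARC strongly, and the summed level of 8 fibroblast markers was 95.8 to 115 normalized reads in control cells and 86.4 to 100.1 in mutp53-depleted cells at 0 h, and 48.3 to 59.8 against 29.4 to 37.0 at 16 h. Of these markers PDGFRB was also higher in depleted cells at 0 h (4.35 and 6.06 against 69.7 and 69.9) and was not called at 16 h (4.83 and 4.27 against 7.55 and 8.64), and ACTA2 was called lower at both times. The genes whose levels were most like SPARC over the 8 libraries, by Pearson's r, were WWTR1 (0.9988), RASSF8 (0.9984), CDC42EP4 (0.9983), DNM1L (0.9979) and WNK1 (0.9979). These 5 share with SPARC a high level in the 4 depleted libraries, and r is then a description of that split.

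The 250 bases before the start of SPARC are shown because SPARC had the largest fitted change. They come from RefSeq on GRCh38.p14 (chr5:151686916-151687165, minus strand), a different build from the hg19 table, and the capitals mark CATTCC, the reverse complement of the TEAD core GGAATG, 17 bases before the start.
SPARC: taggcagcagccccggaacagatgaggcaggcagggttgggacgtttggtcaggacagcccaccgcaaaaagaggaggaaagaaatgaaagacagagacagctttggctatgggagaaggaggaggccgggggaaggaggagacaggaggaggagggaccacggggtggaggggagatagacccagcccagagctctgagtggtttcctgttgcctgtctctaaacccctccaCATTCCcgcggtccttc
GGAATG on either strand is in 14.0% of 35116 RefSeq promoters of 300 bases (250 before and 50 after the start), and in 6 of the 42 members with an entry (COL11A2, ITGA10, ITGA5, ITGB1, LAMA2 and SPARC). The share is per promoter, while a member counts once if any of its promoters matches. The 42 members have 54 promoters, so the figures are not alike. A match in these letters is not a measured binding site.

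The fibrillar collagen chains differed in direction. COL5A1 and COL5A3 were called higher at both times and COL1A1 at 0 h, COL27A1 was called lower at 0 h and COL11A2 at 16 h, and COL2A1 had log2 changes of -0.86 and -0.80 that were not called. COL5A1, the alpha 1 chain of type V collagen, which sets the width of collagen fibrils, had no read in any of the 4 control libraries. It lay at 17.4 and 20.6 normalized reads in mutp53-depleted cells at 0 h and at 29.3 and 17.3 at 16 h, 41 and 49 reads in all. Set against 3 reads over the 2 control libraries, this is at least 12.5-fold higher at 0 h and at least 14.2-fold higher at 16 h. COL5A3, another type V chain, went from 2.18 and 3.03 to 5.36 and 11.0 at 0 h and from 4.83 and 4.27 to 22.6 and 24.7 at 16 h. The groups did not overlap at either time, and the log2 change was 1.29 ± 0.50 (SE, limma adjusted p = 0.04) at 0 h and 2.15 ± 0.50 (0.0015) at 16 h. At 0 h the COL5A3 call held in only 6 of 16 other settings, at few reads.

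COL1A1, the alpha 1 chain of type I collagen, lay at 33.4 and 33.3 normalized reads in control cells and 88.5 and 105.6 in mutp53-depleted cells at 0 h, a log2 change of 1.51 ± 0.24 (limma adjusted p = 3.1e-05). With TNF-α it was 27.1 and 24.2 against 48.6 and 50.6, a log2 change of 0.93 (adjusted p = 0.0029) that stayed under 2-fold. Its region on chromosome 17 had median changes of 0.59 and 0.49, and less that median the changes were 0.92 and 0.44. COL1A2, the other chain of type I collagen, had 1 read in all libraries together, and COL3A1, of type III, had none. COL17A1, a membrane collagen of hemidesmosomes, was at 0 in both control libraries and at 5.36 and 4.11 in the depleted ones at 0 h, at least 3.36-fold higher, and went from 2.90 and 1.42 to 9.22 and 11.1 at 16 h.

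The 4 collagens called lower at 0 h were COL18A1, COL6A1, COL9A3 and COL27A1. COL18A1, a basement membrane collagen that carries heparan sulfate and releases endostatin, lay at 5569 and 6111 normalized reads in control cells and 1571 and 1213 in mutp53-depleted cells at 0 h. This was 4.2-fold lower, with a log2 change of -2.08 ± 0.12 at 0 h and -2.06 at 16 h (limma adjusted p = 1.6e-10 for both). COL6A1, a chain of the beaded filaments of type VI collagen, went from 1134 and 1294 to 448 and 433, a log2 change of -1.46 at 0 h and -1.69 at 16 h. Both lie on chromosome 21, where the nearest genes had a median of -0.68 at 0 h and -0.60 at 16 h. Less that median, COL18A1 remained called, and COL6A1 had a change of -0.77 at 0 h and was not called. COL9A3 went from 5457 and 5770.5 to 2343 and 2118 at 0 h, a log2 change of -1.33, and had a change of -1.25 at 16 h that was not called less its regional median of -0.39 (-0.86). COL27A1, a fibrillar chain, went from 63.1 and 57.6 to 29.5 and 28.8, a log2 change of -1.02 ± 0.18 (adjusted p = 8.3e-05).

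The other chains of type VI and type IV collagen had different levels from their partners. Type VI collagen is a trimer of 3 different chains, and in control cells at 0 h COL6A1 lay at 289.9 normalized reads per kb, COL6A3 at 6.86 and COL6A2 at 2.41. COL6A2 was not called in any contrast. Of the 6 type IV chains only COL4A2 was abundant, at 371 and 377 normalized reads in control cells and 422 and 372 in mutp53-depleted cells at 0 h, groups that overlapped. COL4A1, its usual partner, had 2 reads in control and 4 in depleted cells at 0 h and none at 16 h. COL4A4 stayed between 2.68 and 8.23 normalized reads, COL4A3 and COL4A5 had at most 5 reads in a library each, and COL4A6 had none.

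**Figure D2:**
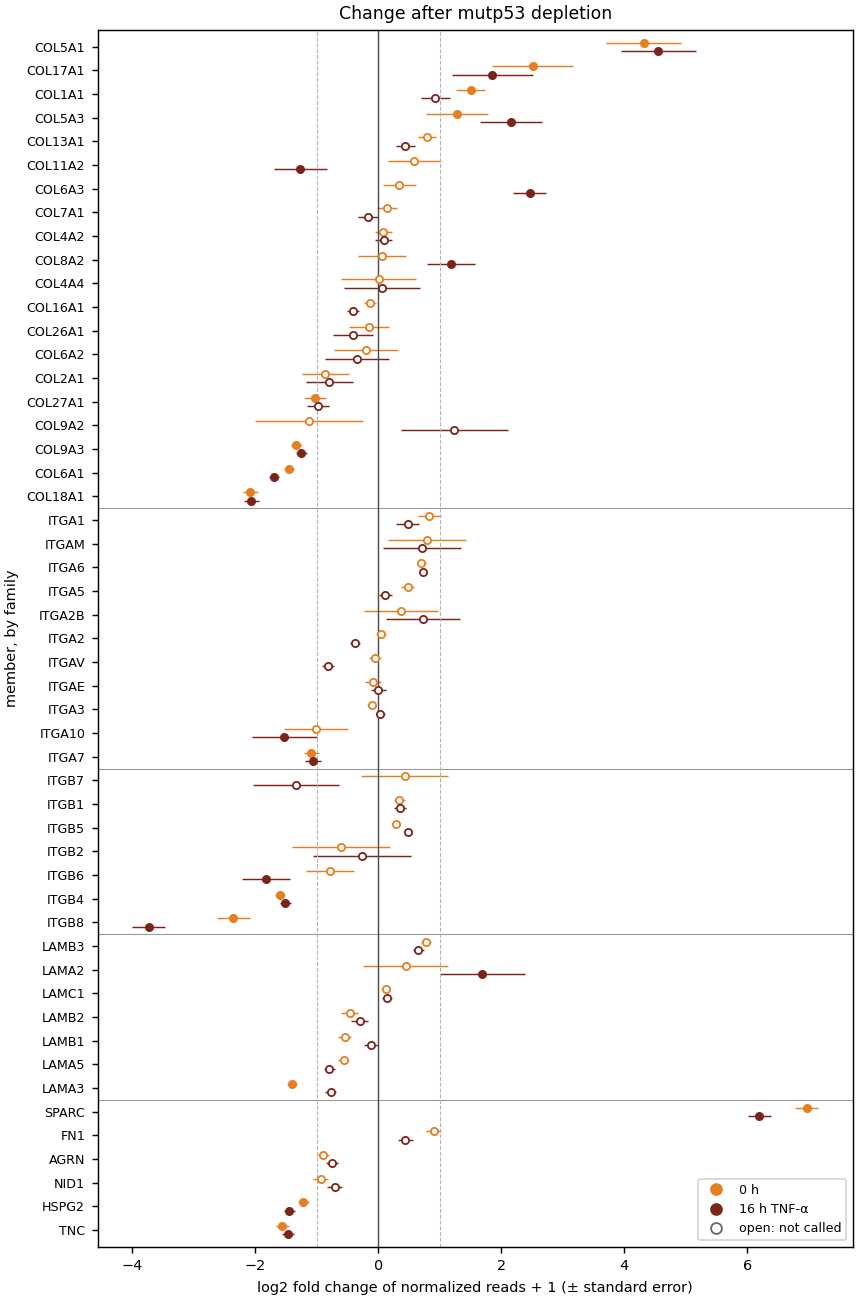
Log2 fold change after mutp53 depletion for the members at 0 h (orange) and at 16 h of TNF-α (dark red), with the standard error as a bar and families separated by lines. Filled points are called, dashed lines mark 2-fold, and SPARC at 6.97 and 6.20 and COL5A1 lie farthest right, although the fitted change of COL5A1 and COL17A1, which have groups at 0 reads, depends on the added constant of 1.

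Laminin-332 binds ITGA6-ITGB4, and its chains LAMA3 and LAMB3 differed in direction. LAMA3 went from 854 and 986 to 349.8 and 346 normalized reads at 0 h, a log2 change of -1.40 ± 0.09 (limma adjusted p = 3.1e-10). LAMB3 lay at 590.02 and 715 in control cells and 1103 and 1131 in depleted cells, a log2 change of 0.78 ± 0.08 that passed the adjusted p (3.7e-07) and not the 2-fold limit. In both genes the groups stood apart. At 16 h the same directions held with smaller sizes, at -0.77 for LAMA3 and 0.65 for LAMB3, neither of them called. Per kb, LAMB3 was at 152 and LAMA3 at 87.0 in control cells at 0 h, and at 261 and 32.9 in mutp53-depleted cells. LAMA3 was divided by the 10583 bases of its listed transcript. A shorter transcript would give it a higher level per kb, so the order of the genes within a group is not settled.

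The promoters of LAMA3 and LAMB3, from RefSeq on GRCh38.p14, are shown because a shared motif could be looked for in genes of 1 trimer that differed in direction. The capitals mark TGANTCA, the AP-1 element, which starts 125 and 69 bases before the start of LAMA3 (chr18:23872770-23873019, plus strand) and 67 bases before 1 of the 3 starts of LAMB3 (chr1:209651375-209651624, minus strand). The other starts of LAMB3 had no match. Whether the start shown for LAMA3 is that of the transcript listed for its counts was not checked.
LAMA3: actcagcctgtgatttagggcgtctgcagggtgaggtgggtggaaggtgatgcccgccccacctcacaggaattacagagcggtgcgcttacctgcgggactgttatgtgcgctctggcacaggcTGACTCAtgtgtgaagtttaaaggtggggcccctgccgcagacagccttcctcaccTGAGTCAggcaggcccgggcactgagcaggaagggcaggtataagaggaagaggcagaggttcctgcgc
LAMB3: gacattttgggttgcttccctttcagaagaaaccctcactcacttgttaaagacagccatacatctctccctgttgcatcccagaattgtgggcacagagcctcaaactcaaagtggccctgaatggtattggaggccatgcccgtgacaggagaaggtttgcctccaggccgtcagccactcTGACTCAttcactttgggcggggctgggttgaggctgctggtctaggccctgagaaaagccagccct
TGANTCA, its own reverse complement, is in 7.71% of the 35116 promoters and, by any of their promoters, in 3 of the 42 members with an entry, ITGA5 among them. The letters are shared by LAMA3, which fell after depletion, and LAMB3, which was higher by less than 2-fold.

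None of the chains of laminin-511, the main laminin of adult epithelia, was called. LAMA5 lay at 5571 and 6507 normalized reads in control cells and 4444 and 3746 in mutp53-depleted cells at 0 h, a log2 change of -0.56 (limma adjusted p = 3.8e-05). LAMB1 had a log2 change of -0.54 (0.00042), or -0.29 less its regional median, and LAMC1 of 0.12. LAMB2 was not called either. LAMA2, the alpha chain of muscle laminin, was called higher at 16 h on 2 reads in control and 12 in depleted cells. The ratio was 5.20, with a counting interval of 1.16 to 47.9 (95%, exact), and only 5 of 16 other settings called it. Its treated control group averaged 1.195, under 2.5, and LAMA2 passed the minimum through its other groups. The call and the interval of LAMA2 thus carry no test. The bars of laminin chains per kb show LAMC1 between 227 and 265 in the 4 groups and LAMA5 lowest in mutp53-depleted cells with TNF-α.

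**Figure D3:**
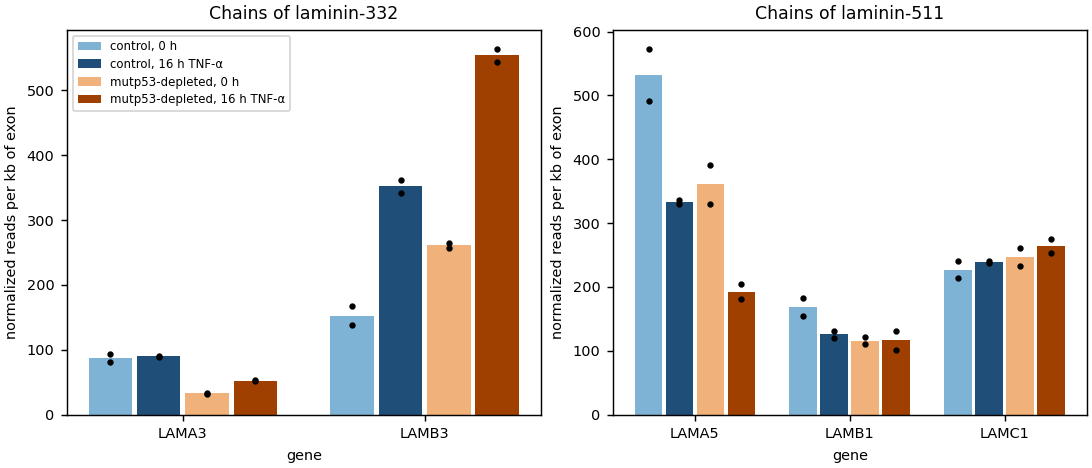
Normalized reads per kb of exon for LAMA3 and LAMB3 of laminin-332 (left) and the chains of laminin-511 (right) in the 4 groups. Bars are means of 2 libraries and black points the libraries, and LAMB3 reads 152, 352, 261 and 554 from left to right while LAMC1 reads 227, 239, 247 and 265.

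Perlecan, agrin and nidogen were all lower in mutp53-depleted cells. HSPG2 lay at 1909 and 2097 normalized reads in control cells and 938 and 784 in depleted cells at 0 h, a log2 change of -1.22 ± 0.09 (limma adjusted p = 2.6e-09), and -1.45 at 16 h. Only HSPG2 of the 3 was called. AGRN went from 9233 and 10808 to 5847 and 4917, a log2 change of -0.90 (adjusted p = 5.5e-07), and NID1 from 372 and 406 to 220.5 and 186, a log2 change of -0.93 (2.7e-06). Less the median of its region, the AGRN change was -0.54 at 0 h and -0.46 at 16 h (from -0.76), and the NID1 change was -1.11 at 0 h, past 2-fold. NID2 had 4 reads in all, in 1 library, and SPOCK1, a proteoglycan related to SPARC, had 1.

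FN1 was higher and TNC lower in mutp53-depleted cells. Fibronectin (FN1), which links collagen to integrins, was higher by 0.90 ± 0.12 on the log2 scale at 0 h (limma adjusted p = 6.0e-06), from 1150.3 and 1636 to 2605 and 2520.2 normalized reads, and by 0.44 at 16 h (0.0057). It was not called at either time. Tenascin-C (TNC), a matrix protein that weakens adhesion to fibronectin, lay at 493 and 489 in control cells and 154 and 179.6 in depleted cells at 0 h. This was 2.94-fold lower (log2 -1.56 ± 0.10, adjusted p = 6.1e-10), and at 16 h it was 893 and 821 against 301 and 319.6 (log2 -1.46). The promoter of TNC is shown because it held the only upstream match among members to GGGANTTCC, an NF-κB element (capitals, 217 bases before the start, chr9:115118158-115118407, minus strand, RefSeq GRCh38.p14).
TNC: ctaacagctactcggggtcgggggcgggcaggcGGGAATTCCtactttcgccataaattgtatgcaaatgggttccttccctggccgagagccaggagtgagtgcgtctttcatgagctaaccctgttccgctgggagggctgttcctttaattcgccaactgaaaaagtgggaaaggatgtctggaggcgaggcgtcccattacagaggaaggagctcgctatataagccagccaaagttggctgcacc
That element, on either strand, is in 1.85% of the 35116 promoters. ITGA10 held the other match, after its start. The ETS core CCGGAAG, on either strand, was in 10.3% of the promoters and in those of ITGA6, ITGB5 and LAMA5.

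Among the integrins, the subunits of the laminin receptor ITGA6-ITGB4 differed in direction. ITGB4, whose long tail anchors keratin at hemidesmosomes, lay at 5112 and 6017 normalized reads in control cells and 1961 and 1714 in mutp53-depleted cells at 0 h, 3.03-fold lower (log2 -1.60 ± 0.09, limma adjusted p = 7.3e-11). At 16 h the log2 change was -1.51. ITGA6 instead was higher, from 3602 and 3928 to 6193 and 6061 at 0 h, a log2 change of 0.70 ± 0.07 (adjusted p = 9.6e-08) and 0.73 at 16 h, under 2-fold at both times. Per kb, ITGB4 was above ITGA6 in control cells at 0 h (947 against 647) and below it in depleted cells (313 against 1054).

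ITGB8, which pairs with ITGAV and activates latent TGF-β, had the largest fall of any member after depletion, at 0 h and at 16 h. It went from 78.4 and 99.99 to 18.1 and 15.1 normalized reads at 0 h and from 121 and 153.7 to 10.1 and 8.64 at 16 h. The 4 depleted libraries lay far below the 4 control ones, 5.38-fold lower at 0 h (log2 -2.35 ± 0.27, limma adjusted p = 7.3e-07) and 14.7-fold lower at 16 h (log2 -3.73, 2.1e-09). Its region on chromosome 7 had medians of -0.74 and -0.72. ITGB6, another partner of ITGAV, lay at 21.1 and 21.2 against 12.7 and 11.0 at 0 h and was called lower at 16 h, at 25.1 and 18.5 against 5.87 and 4.94 (log2 -1.82 ± 0.39, limma adjusted p = 0.00069). ITGB5, also a partner of ITGAV and far more abundant, went the other way and was not called. It lay at 3345 and 3404 against 4183 and 4055 at 0 h, and at 2469 and 2342 against 3354 and 3404 at 16 h. ITGAV itself had a log2 change of -0.05 (0.68) at 0 h and of -0.81 (1.0e-06) at 16 h, under 2-fold.

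ITGA7, a laminin-binding subunit best known in muscle, was called lower at both times, from 803 and 1097 to 487 and 402 normalized reads at 0 h (log2 -1.08 ± 0.13, limma adjusted p = 1.0e-06). ITGA10, a collagen receptor subunit of cartilage, was called lower at 16 h on few reads, at 21.3 and 9.96 against 2.52 and 7.40. The common partner ITGB1 was higher by 0.35 at both times (0.19 at 0 h less its regional median) and was not called. Of the alpha subunits it pairs with, ITGA5, of the fibronectin receptor, was higher by 0.48 at 0 h (adjusted p = 0.00061, 0.25 less its regional median), ITGA1 by 0.83 (0.0011) and ITGA2 by 0.05 (0.60), all under 2-fold. ITGA3 differed by -0.11 and 0.04 at 0 h and 16 h, with adjusted p of 0.23 and 0.69, in a region of chromosome 17 with medians of 0.59 and 0.49.

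**Figure D4:**
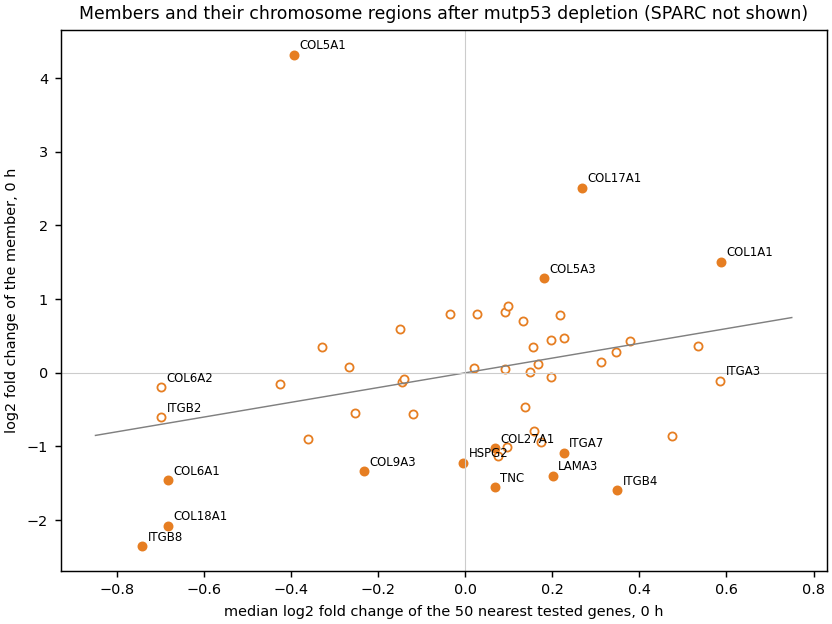
Log2 fold change of each member after mutp53 depletion at 0 h against the median of the 50 tested genes nearest to it, with filled points called and a line of equal change (SPARC is left out). COL18A1, COL6A1 and ITGB8 lie at region medians of -0.74 to -0.68 and fall below the line, while HSPG2, TNC and ITGB4 fall in regions with medians of -0.01, 0.07 and 0.35. COL6A2 and ITGB2, with few reads, also lie at a region median of -0.70 and were not called.

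TNF-α for 16 h raised some members and lowered others in both lines. In control cells 13 members (25%) were called, 7 higher and 6 lower, beside 7.24% of all tested genes, 2.97% higher and 4.27% lower. In mutp53-depleted cells 12 members (23.1%) were called, 7 higher and 5 lower, beside 6.36%, 1.86% higher and 4.5% lower. Without the 7 members that had a group under 2.5 normalized reads, 12 of 45 were called in control and 10 of 45 in depleted cells. The median log2 change of the members was 0.05 in control and -0.04 in depleted cells, beside -0.05 and -0.06 over all genes. Of the called members, 10 were called in both lines, in the same direction, an overlap that was not counted over all tested genes. The TNF-α change in control cells and the depletion change at 0 h share the control libraries at 0 h, so their values for a gene are not independent of each other. Epithelial markers moved with TNF-α too, with CDH1 (log2 -2.51), VIL1 (-2.10), ESRP1 (-1.16) and CDX2 (-1.07) called lower in control cells and CDH1 (-2.15), VIL1 (-2.21) and ESRP1 (-1.55) in depleted cells, and none called higher. Their part in the results was not tested.

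The collagen-binding subunits ITGA2 and ITGA1 rose. ITGA2, which with ITGB1 forms the main collagen receptor of epithelia, went from 533 and 603 to 1754 and 1884 normalized reads in control cells (log2 1.68 ± 0.08, limma adjusted p = 2.4e-11) and from 599.8 and 577 to 1455 and 1361 in depleted cells (log2 1.26, 2.0e-09). ITGA1 went from 321.5 and 458 to 1102 and 1401 (log2 1.69 ± 0.19, 1.4e-06) and from 784 and 592 to 2219 and 1350.1 (log2 1.34, 2.7e-05), and its call in depleted cells was lost without the A library of that group at 16 h. The untreated and treated libraries did not overlap for either gene in either line. ITGB1, their partner, had log2 changes of 0.05 and 0.06. ITGA7 fell in both lines, by 1.34 and 1.31 on the log2 scale (2.0e-07 and 3.5e-07).

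ITGAM, the alpha subunit of the leukocyte receptor Mac-1, appeared with TNF-α in both lines. It had no read in control cells at 0 h and 22.2 and 11.4 normalized reads at 16 h, at least 12.1-fold higher. In depleted cells it went from 2.01 and 0 to 27.7 and 25.9, that is from 3 to 54 reads. The ratio was 20.0, with a counting interval of 6.48 to 99.8. ITGAM passed the minimum through its treated groups, so its calls carry no test. The leukocyte marker PTPRC was at 0 in all 8 libraries. The summed level of the 8 leukocyte markers was 24.2 to 41.4 in control cells at 0 h and 17.1 to 17.4 at 16 h. Most of this was CD14, at 34.8 and 21.2 and then 12.6 and 9.96. In depleted cells the sum was 24.7 to 34.8 at 0 h and 15.1 to 17.3 at 16 h. The source of the ITGAM reads was not tested. ITGB2, the beta partner of ITGAM, lay between 0 and 8.70 normalized reads in the 8 libraries and was not called. ITGB7 was called lower in depleted cells on 15 and 3 reads (4.51-fold, interval 1.28 to 24.3), a call that 8 of 15 other settings made. It had a mean of 1.26 in depleted cells at 16 h and passed the minimum through the other groups, so this call carries no test either.

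Of laminin-332, LAMB3 rose with TNF-α in both lines. LAMB3 went from 590.02 and 715 to 1549.7 and 1465 normalized reads in control cells (log2 1.21 ± 0.08, limma adjusted p = 3.1e-09) and from 1103 and 1131 to 2327 and 2416 in depleted cells (log2 1.09, 1.9e-08). The chains of laminin-511 were not called in either direction. LAMA5 had log2 changes of -0.67 and -0.90, LAMB1 of -0.42 and 0.00, and LAMC1 of 0.07 and 0.10.

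With TNF-α in control cells 5 of the 20 collagens were called lower (25%) and 2 higher (10%). Over all tested genes, too, more were called lower (4.27%) than higher (2.97%). COL27A1 rose in both lines, from 63.1 and 57.6 to 242 and 259 in control cells (log2 2.03 ± 0.18, limma adjusted p = 6.0e-08) and from 29.5 and 28.8 to 131 and 122 in depleted cells (log2 2.08, 6.2e-08). COL9A3 fell in both, to 2665 and 2403 in control cells (log2 -1.15 ± 0.09, 1.2e-08) and to 1175 and 967.5 in depleted cells (log2 -1.06, 4.4e-08, called in 11 of 17 other settings). COL2A1, the main collagen of cartilage, fell by 1.26 and 1.20 on the log2 scale and COL26A1 by 1.16 and 1.42, from 53.02 normalized reads or fewer, and 12 of 17 other settings made each COL2A1 call. COL11A2, a type XI chain that the table places at 7 positions so that its reads are uncertain, rose in control cells from 4.35 and 10.6 to 45.4 and 29.9 (log2 2.27, 0.0006) and lay at 10.7 and 11.0 against 17.6 and 12.3 in depleted cells. COL8A2, of type VIII, fell in control cells from 17.4 and 25.8 to 5.80 and 5.69 (log2 -1.72 ± 0.39, 0.0028), a call that was lost without the B library of control cells at 0 h. COL4A2 had log2 changes of -0.85 and -0.84 in the lines, under 2-fold.

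None of the 6 other matrix proteins was called with TNF-α by limma, and 4 in control and 3 in depleted cells had an adjusted p under 0.05. TNC had log2 changes of 0.80 in control and 0.89 in depleted cells (limma adjusted p = 7.4e-06 and 2.5e-06), just under 2-fold. SPARC had a log2 change of 0.14 in control and -0.63 in depleted cells, with the values given above. FN1 had 0.30 and -0.17, AGRN 0.28 and 0.42, HSPG2 0.32 and 0.10, and NID1 -0.41 and -0.18. Among the integrins, ITGB4 had log2 changes of -0.47 and -0.39 and ITGB5 of -0.49 and -0.29.

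**Figure D5:**
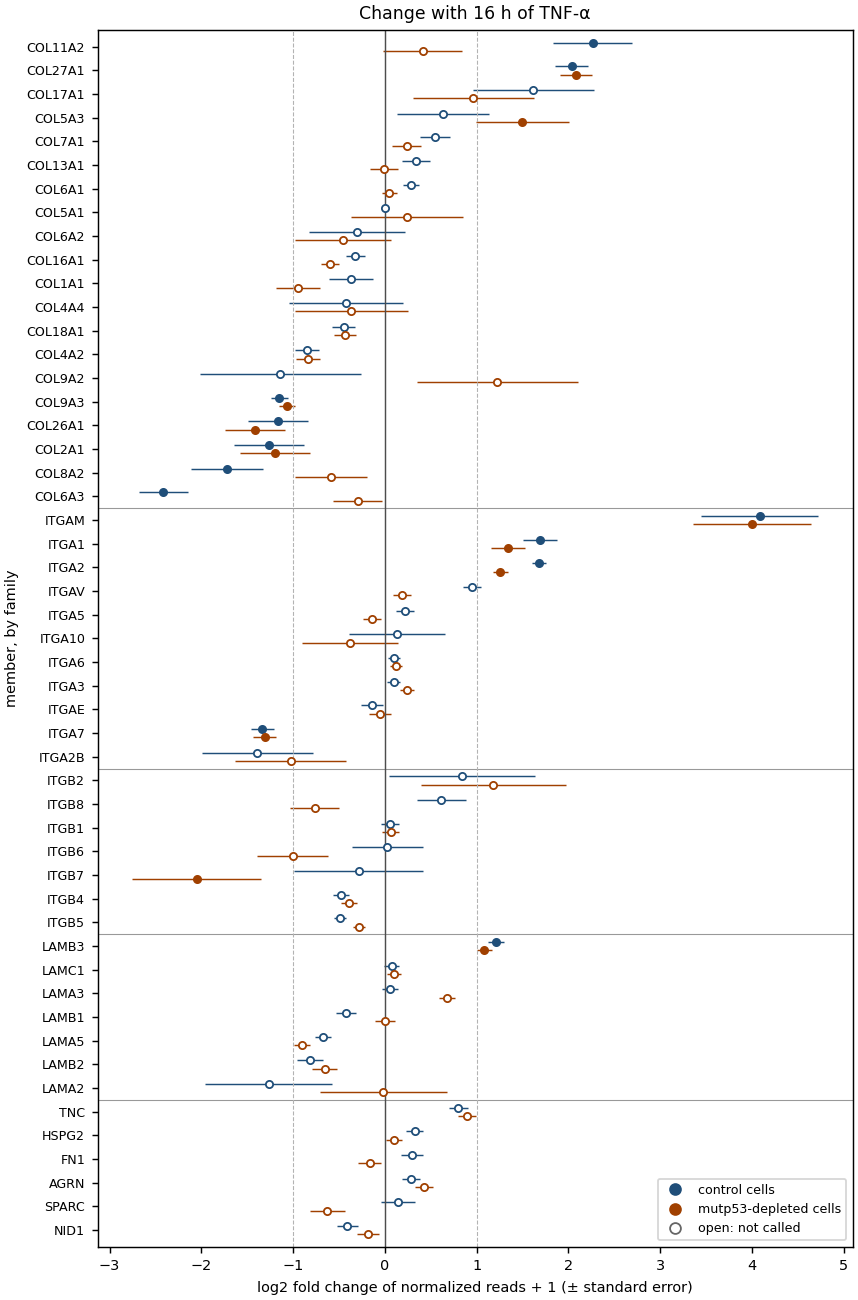
Log2 fold change with 16 h of TNF-α for the members in control cells (blue) and mutp53-depleted cells (brown), with the standard error as a bar and families separated by lines. Filled points are called and dashed lines mark 2-fold, and COL6A3 (-2.41 and -0.30) and ITGAV (0.95 and 0.19) are set apart between the lines, while ITGA2, ITGA7, LAMB3 and COL27A1 moved the same way in both.

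The interaction, the TNF-α change in depleted cells less that in control cells, was called at an adjusted p under 0.05 for 4 of the 52 members (7.69%), 3 higher and 1 lower, beside 2.86% of all tested genes, 0.655% higher and 2.21% lower. In all, 12 members had an unadjusted p under 0.05. LAMA3 lay at 946 and 956 normalized reads in control cells at 16 h, close to its 0 h level, and went from 349.8 and 346 to 572 and 543 in depleted cells, an interaction of 0.63 ± 0.12 (limma adjusted p = 0.0060). LAMB3 had an interaction of -0.13 (0.72).

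COL6A3 fell with TNF-α in control cells, from 56.6 and 87.9 to 15.5 and 9.96 normalized reads (log2 -2.41), and lay at 87.8 and 91.9 against 69.6 and 76.5 in depleted cells (log2 -0.30, limma adjusted p = 0.46). The interaction was 2.12 ± 0.38 (0.0031). COL6A3 was called higher after depletion at 16 h (5.74-fold) and not at 0 h. ITGAV, the alpha subunit of receptors that bind fibronectin and vitronectin, went from 1276 and 1373 to 2607 and 2512 in control cells (log2 0.95) and from 1358 and 1202.5 to 1642 and 1289.6 in depleted cells (log2 0.19), an interaction of -0.76 ± 0.13 (0.0029). COL8A2 was also called higher after depletion at 16 h alone (log2 1.19 ± 0.39, 0.016), and COL11A2 lower (log2 -1.27, 0.02). The interaction values of COL11A2 (-1.85, 0.13) and ITGB8 (-1.38 ± 0.38, 0.059) did not pass.

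Other genes of the matrix, in lists chosen with earlier results of these data known, changed in part beside the members. Their counts stand against 5.89% of all tested genes called higher and 9.55% lower after depletion at 0 h, 5.03% and 10.2% at 16 h, and 2.97% and 4.27% with TNF-α in control cells. Of 28 tested genes for collagen processing and cross-linking, 7 were called lower and 1 higher at 0 h, and the same counts held at 16 h. The list's median log2 change was -0.42 at 0 h, against 0.03 over all genes. PLOD2, a lysyl hydroxylase, fell furthest, from 9.43 and 15.2 normalized reads to 0 in both depleted libraries, at least 8.36-fold lower. LOX, a lysyl oxidase that cross-links collagen, was the 1 called higher, from 1.45 and 1.51 to 15.4 and 15.1, that is from 3 to 34 reads, a ratio of 10.4 with a counting interval of 3.27 to 52.9. With TNF-α in control cells P4HA2, a prolyl hydroxylase, rose by 1.61 and LOXL4 fell by 1.07 on the log2 scale, each the only gene of the list called in its direction.

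Of 19 proteoglycan and elastic fibre genes, 3 were called higher and 6 lower at 0 h, with FBN1 (fibrillin-1) going from 2 to 29 reads (ratio 13.3, interval 3.37 to 115) and FREM2, of the epithelial basement membrane, from 17.4 and 16.7 normalized reads to 6.03 and 0. TNF-α in control cells called 7 of the 19 lower and none higher, among them FBN3, which fell by 3.14 on the log2 scale. Of 10 other matricellular genes, 2 were called higher at 0 h (CYR61, log2 1.01, and NOV, 1.03) and none lower, and CTGF fell by 2.93 with TNF-α in control cells (limma adjusted p = 1.1e-06). Of 14 other matrix receptors, 3 were called lower at 0 h, BCAM, a receptor of laminin alpha 5, furthest (log2 -1.92), and SDC4 rose with TNF-α in control cells (log2 2.47). Of 32 focal adhesion adaptors, 1 was called higher at 0 h (TNS1, log2 1.83) and 2 lower (TNS2 furthest, -1.24), a share below the 15.4% called over all tested genes, with a list median of 0.03, beside 0.03 over all genes. TNS1 went from 32 to 3 reads with TNF-α in control cells, a ratio of 9.09 lower with a counting interval of 2.84 to 46.4.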

How the data were processed

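Strand-specific (dUTP) mRNA-seq libraries of 4 groups of 2 were analysed. Per the file headers, the authors counted reads on the exons of RefSeq genes of hg19 with HOMER. The study's methods name STAR and hg38, and the coordinates of the table are hg19. The signal values that the authors deposited, called normalized reads here, equal whole reads times a single scaling factor for each library. In the library with the lowest share, 99.99% of the values were whole reads once divided by that factor, to within the rounding of the deposited values. The deposited table also holds log2 fold changes, p-values and adjusted p-values of the authors' own group comparisons, which were not used.

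The log2 of normalized reads plus 1 was fitted in limma 3.58.1 under R 4.3.3, as 4 group means with lmFit and then contrasts.fit and a trended eBayes. The fit held the 14800 genes averaging 2.5 or more, with Benjamini-Hochberg adjustment over all of them. A fold change on this scale understates the change of low genes. Genes were called at an adjusted p under 0.05 and at least 2-fold, with no fold limit for the interaction. Errors are standard errors of the log2 change with 2 libraries per group, and p-values measure the spread between these libraries. Where a group had no read, folds were set against 3 reads over its 2 libraries, and counting intervals cover counting error only. Alternatives were edgeR 4.0.16 and DESeq2 1.42.0 on the recovered reads (edgeR called 2336, 2249, 1076, 939 and 456 genes in the order depletion at 0 h and 16 h, TNF-α in control and depleted cells, and interaction), median-ratio scaling, other minimums and added constants, a replicate block, the regional median subtracted, and each library left out.

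Named members were SPARC, the largest called changes, the chains of the trimers and pairs above, and the other matrix proteins, and COL3A1 was added after its values were seen. The members, lists and motifs were chosen with earlier results of these data known. Promoters came from the RefSeq table (GRCh38.p14), which had 42 of the 52 members. The ChIP-seq and GRO-seq samples were not analysed here. Some results that enter the counts are not reported here. The scripts were tested on simulated data.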

Additional observations from a re-analysis of the deposited data

Results flagged for a closer look

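The change with TNF-α differed between the lines for the members named here, by the interaction term of limma over all tested genes. LAMA3 had the larger change in mutp53-depleted cells, by 0.63 on the log2 scale. COL6A3 was 2.12 higher in its TNF-α change in depleted cells, where it was not called, than in control cells, where it fell. ITGAV had an interaction of -0.76, with the larger change in control cells. LAMA3 was higher in 2 of 2 depleted libraries at 16 h than in either at 0 h. Groups of 2 libraries are too small to look for a library that stands apart.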

How the results depend on the processing

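Over the 5 contrasts, 63 pairs of a member and a contrast were called, and 42 of these were called under every one of the alternatives run for them, up to 17. Of the 197 pairs not called, 23 were called under some alternative, and no called value turned its direction. The counts of members called (16, 18, 13, 12 and 4) moved by less than 1.5 times under all alternatives. DESeq2 lost 10 calls and gained none, edgeR lost 4 and gained 1, and subtracting the regional median lost 7 and gained 5, among the losses COL1A1, COL6A1 and COL5A3 at 0 h. Leaving out 1 library lost 3 to 8 calls. For depletion at 0 h these were COL5A3 (without control 0 h B or A, depleted 0 h B, or depleted 16 h A or B), COL27A1 (control 0 h A) and ITGA7 (control 0 h B or depleted 0 h B). For depletion at 16 h they were LAMA2 (any control library or depleted 16 h B), COL17A1 (control 16 h B, depleted 16 h A or B), ITGA10 (control 16 h A or depleted 16 h A), COL11A2 (control 16 h A or depleted 16 h B) and COL8A2 (depleted 16 h A). With TNF-α in control cells they were COL2A1 (any control library), COL26A1 (control 0 h B or 16 h A) and COL8A2 (control 0 h B), and in depleted cells, among depleted libraries, COL5A3 (0 h A, 16 h A or B), ITGB7 (0 h A or B, 16 h B), COL26A1 and COL9A3 (0 h A or 16 h B), COL2A1 (0 h B or 16 h A) and ITGA1 (16 h A). Why these calls were lost was not tested. No pairing by the letters A and B was seen over all tested genes, as deviations of same-lettered libraries correlated between -0.019 and 0.074. Counting error in genes with few reads enters these values, so they cannot show that the samples were unpaired. With the replicate block, 16, 18, 13, 12 and 5 members were called, the added one being ITGA2 in the interaction, and genes called for the interaction went from 424 to 559.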
